A study of Homo sapiens with 30 samples.

Results

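RNA levels of 10 genes of the integrated stress response and the endoplasmic reticulum (ER) stress response were followed in human Hues6 embryonic stem cells, wild type or labelled as knockout for the RNA-binding protein QKI, that were driven towards cardiomyocytes. The genes were taken by symbol from a list drawn up with earlier results of these data known: the transcription factors ATF4, ATF3 and DDIT3, their targets DDIT4, TRIB3, CHAC1, SESN2 and ASNS, and the ER genes HERPUD1 and XBP1. All 10 were found among the 39126 genes of the whole-cell count table, and the same Ensembl identifiers were found among the 55548 genes of the nuclear table. All 10 also passed the filter on low counts in both tables. The groups were cells labelled QKI knockout (KO) and wild-type cells (WT) at day 0 (D0, pluripotent), day 4 (D4, cardiac progenitor stage) and day 8 (D8, cardiomyocyte stage), plus nuclear RNA of both genotypes at D8, with 3 libraries per group. Whole-cell D8 libraries keep their label numbers, 1, 2 and 4 in KO and 2, 3 and 4 in WT. For D4 and D8, KO cells were plated in 1.25 uM CHIR and WT cells in 1.5 uM CHIR, which turns on WNT signalling by inhibiting GSK3. Both genotypes received 1.5 ng/mL BMP4 and later C59, an inhibitor of WNT secretion. Genotype and CHIR dose cannot be told apart at D4 and D8. The growth protocol describes dissociation, replating and, at each stage, UV crosslinking of cells, and it does not say whether the cells used for RNA were crosslinked. The labels do not say how many knockout clones were used or whether libraries of a group came from separate cultures, so the p-values rest on the spread between libraries, which may be technical. The series also holds 3 libraries of 293T cells with an siRNA against QKI and 3 with a control siRNA, for which only the skipped-exon table was used.

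The integrated stress response starts with kinases that phosphorylate the translation factor eIF2 when amino acids run short, unfolded proteins build up in the ER, heme is lacking or double-stranded RNA appears. General translation slows, and ATF4, whose messenger RNA carries upstream open reading frames, is translated more. ATF4 and its partner DDIT3 (also called CHOP) switch on genes of amino acid supply, redox balance and cell death. The ER response has 2 further arms: ATF6, cut free by membrane proteases, and ERN1 (IRE1), which splices XBP1 messenger RNA into its active form outside the usual splicing machinery. These counts measure RNA per gene, so neither ATF4 translation nor the XBP1 splice form was measured.

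The promoters of CHAC1, ASNS, HERPUD1 and XBP1 are shown because letters of known stress response elements lie in them, close to where transcription starts. They are the RefSeq windows of build GRCh38.p14 from 250 bases before to 50 bases after the start, written 5′ to 3′ on the strand of the gene in lower case, with matched motifs in capitals. The windows are CHAC1 at chr15:40953221-40953520 (plus strand), ASNS at chr7:97872359-97872658 (minus strand), HERPUD1 at chr16:56931892-56932191 (plus strand) and XBP1 at chr22:28800520-28800819 (minus strand).
CHAC1: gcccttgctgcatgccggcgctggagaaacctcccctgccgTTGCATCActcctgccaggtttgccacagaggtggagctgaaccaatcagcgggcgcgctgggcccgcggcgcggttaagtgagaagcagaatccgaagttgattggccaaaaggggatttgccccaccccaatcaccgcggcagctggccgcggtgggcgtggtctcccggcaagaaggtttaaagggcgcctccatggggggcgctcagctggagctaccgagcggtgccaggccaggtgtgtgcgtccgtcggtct
ASNS: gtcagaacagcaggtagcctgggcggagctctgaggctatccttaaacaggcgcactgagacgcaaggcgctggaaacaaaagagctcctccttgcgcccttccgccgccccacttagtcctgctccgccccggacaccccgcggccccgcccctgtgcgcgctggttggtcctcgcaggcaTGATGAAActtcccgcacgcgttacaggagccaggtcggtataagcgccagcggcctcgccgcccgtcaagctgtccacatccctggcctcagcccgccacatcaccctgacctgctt
HERPUD1: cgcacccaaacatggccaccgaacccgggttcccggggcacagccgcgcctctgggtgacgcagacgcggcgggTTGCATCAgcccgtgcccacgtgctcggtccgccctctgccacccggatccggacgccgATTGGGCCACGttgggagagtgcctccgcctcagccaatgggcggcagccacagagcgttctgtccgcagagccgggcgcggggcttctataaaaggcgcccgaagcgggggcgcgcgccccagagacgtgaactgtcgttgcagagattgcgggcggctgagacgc
XBP1: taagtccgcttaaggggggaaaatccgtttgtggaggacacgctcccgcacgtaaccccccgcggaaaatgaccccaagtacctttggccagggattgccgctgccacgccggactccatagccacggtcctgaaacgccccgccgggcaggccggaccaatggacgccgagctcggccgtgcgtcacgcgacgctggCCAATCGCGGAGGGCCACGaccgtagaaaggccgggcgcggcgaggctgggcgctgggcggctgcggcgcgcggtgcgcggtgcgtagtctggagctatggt
In the first 3 windows the capitals include the C/EBP-ATF composite element bound by ATF4 with C/EBP proteins (TGATGNAA, searched on both strands), which starts 209, 68 and 176 bases before the start in CHAC1, ASNS and HERPUD1. HERPUD1 also holds ER stress element II (ATTGGNCCACG), 117 bases before the start, and the XBP1 window holds the ER stress element (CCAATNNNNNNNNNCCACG), 52 bases before it. No motifs overlapped. Over all genes with a window, 4.46% held the composite element, against 4 of the 10 genes here (ATF3 was the fourth, with 1 of its 2 windows). The ER stress element was in 0.0769% of all windows and ER stress element II in 0.0541%. The unfolded protein response element (TGACGTGG, in 0.729% of windows) and the cAMP response element (TGACGTCA, in 1.85%) were in none of the 10 genes' windows. A match describes the letters and is no evidence of binding.

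Whole-cell libraries held 40001076 to 89948185 counts, and nuclear libraries 6549676 to 15030590. The total RNA level of QKI, the targeted gene, was set against the labels. It averaged 39.4 CPM (TMM-scaled counts relative to the depth of the library) in KO against 293 CPM in WT at D0, and 78.2 CPM in KO against 146 CPM in WT at D4. At D8 it averaged 335 CPM in the libraries labelled KO against 324 CPM in WT (log2 fold change 0.05, edgeR adjusted p 0.66), and in nuclear RNA 505 CPM in libraries labelled KO against 160 CPM in WT (1.66, edgeR adjusted p 7.9e-10). The total QKI level therefore does not bear out the KO label at D8. It does not settle the label either, since QKI protein was not measured. Directions drawn there are those of libraries labelled KO. The summed markers of pluripotent cells ranged from 6766 to 7316 CPM in KO and from 6440 to 6748 CPM in WT at D0, and the 7 cardiomyocyte markers from 24861 to 29014 CPM in libraries labelled KO and from 8900 to 15820 CPM in WT at D8. Of the 35 cell type markers in the table, SOX17 and TTR were at 0 counts in D0 WT and TTR and DLX5 in D0 KO, with none at 0 at D4 or D8. PECAM1, an endothelial marker, was not among the symbols of the table.

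In undifferentiated stem cells, most of these stress genes were more abundant in QKI KO than in WT. At D0, 7 of the 10 genes were called higher in KO, against 21.4% of all 21761 genes tested, and 1 was called lower, against 20.9%. Here called means an adjusted p (Benjamini-Hochberg) under 0.05 in the quasi-likelihood test of edgeR. The median log2 fold change of KO over WT was 0.59 for the 10 genes and -0.012 for all genes. In bulk RNA, fewer cells of a type and less RNA per cell cannot be told apart, here and at every later result.

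**Figure D1:**
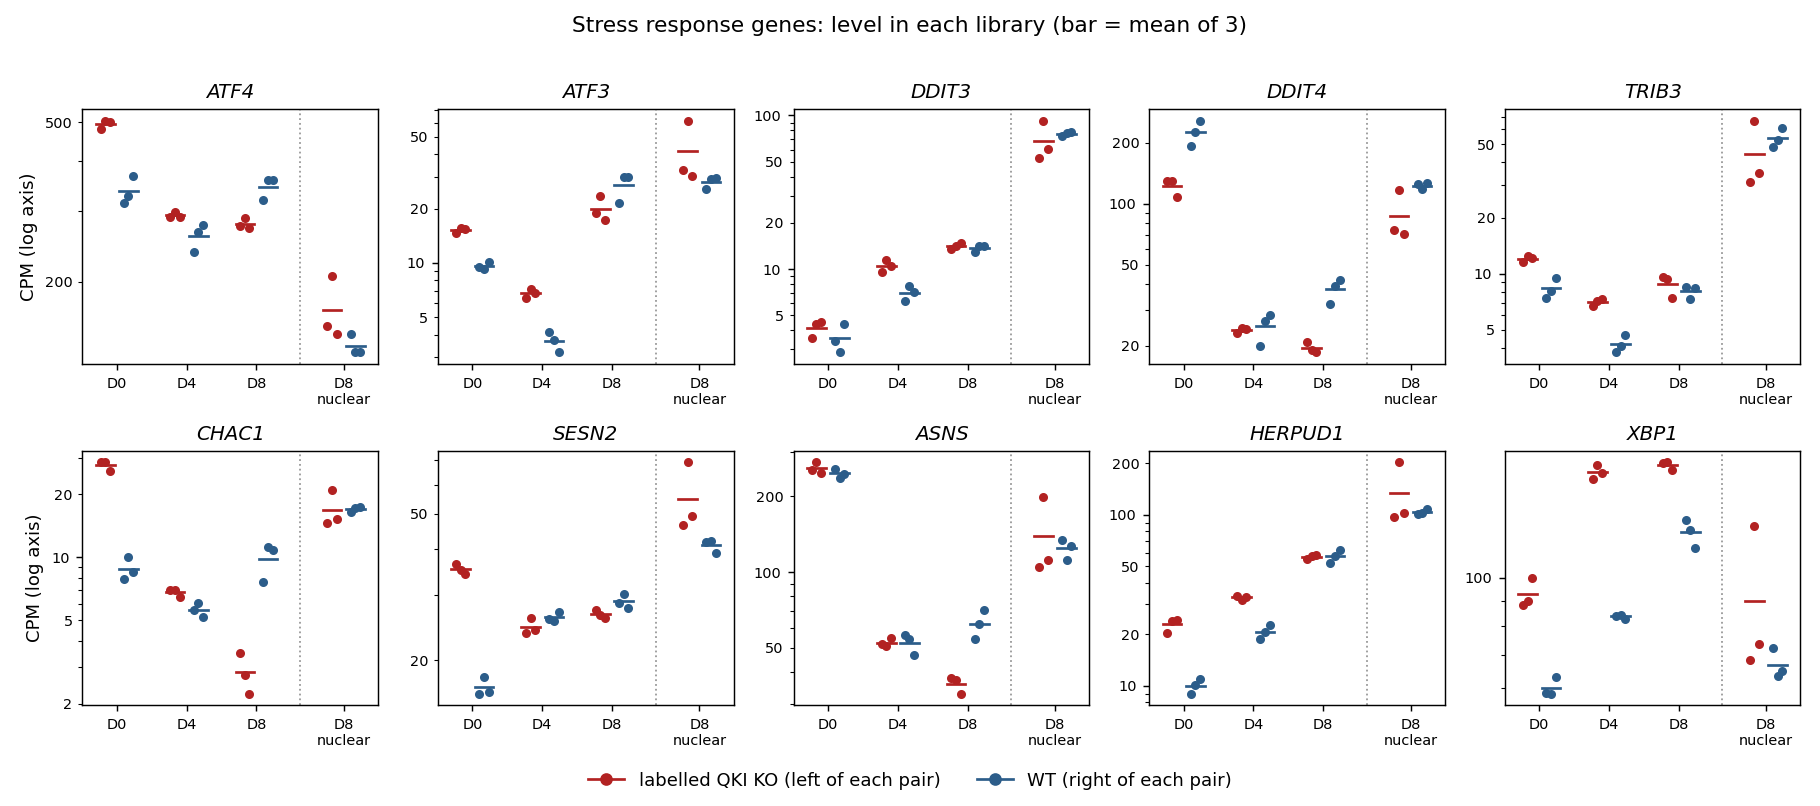
Level of each gene in every library, in CPM on a log axis, at D0, D4 and D8 in whole-cell RNA and at D8 in nuclear RNA (right of the dotted line, scaled separately); points are libraries, bars the mean of 3, with libraries labelled KO left of WT. CHAC1 has its highest level in D0 KO (26 to 28.5 CPM) and its lowest in D8 libraries labelled KO (2.23 to 3.49 CPM), and in nuclear RNA the second KO library is the highest of the 3 for all 10 genes.

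Among the transcription factors, ATF4 (ENSG00000128272.10), the factor at the centre of the response, had 481, 505 and 500 CPM in D0 KO libraries, against 314, 327 and 367 CPM in WT. All KO values lay above all WT values (log2 fold change 0.56 with SE 0.07, edgeR adjusted p 1.2e-06). ATF3, a repressor of the same bZIP family that is induced by many stresses, had 14.6, 15.6 and 15.4 CPM in KO, against 9.53, 9.28 and 10.1 CPM in WT, with no overlap (0.66, SE 0.12, edgeR adjusted p 0.00023). DDIT3, the factor linked to cell death under lasting ER stress, had 3.56, 4.41 and 4.51 CPM in KO and 3.39, 2.87 and 4.39 CPM in WT. Its groups overlapped and it was not called (0.23, 95% interval -0.06 to 0.51, edgeR adjusted p 0.2), and without the third WT library it was (0.41, edgeR adjusted p 0.021).

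Of the 5 targets, CHAC1, an enzyme that breaks down glutathione, differed most at D0. It had 28.5, 28.5 and 26 CPM in KO against 7.9, 10 and 8.48 CPM in WT, a difference of 1.65 on the log2 scale (SE 0.14, edgeR adjusted p 9.4e-09), or 3.14-fold. SESN2, a leucine sensor that restrains the growth kinase mTORC1, had 36.5, 35.2 and 34.2 CPM in KO against 16.2, 18 and 16.4 CPM in WT (1.07, SE 0.06, edgeR adjusted p 1.1e-10). In both genes every KO library lay far above every WT library. TRIB3, a pseudokinase that feeds back on ATF4 and DDIT3, had 11.5, 12.5 and 12.1 CPM in KO against 7.4, 8.12 and 9.48 CPM in WT (0.53, SE 0.11, edgeR adjusted p 0.00076). DDIT4 (REDD1), another restrainer of mTORC1 that is also induced by hypoxia, went the other way, with 129, 129 and 108 CPM in KO against 193, 226 and 257 CPM in WT (-0.88, SE 0.12, edgeR adjusted p 3.8e-06). ASNS, the enzyme that makes asparagine, had 254, 273 and 248 CPM in KO and 256, 237 and 246 CPM in WT. Its groups overlapped, with a log2 fold change of 0.07 and a 95% interval from -0.10 to 0.24. Of the 4 genes with the composite element in a window, ATF3, CHAC1 and HERPUD1 were called at D0 and ASNS was not. Of the genes without it, ATF4, DDIT4, TRIB3, SESN2 and XBP1 were called and DDIT3 was not. Over all genes tested, 42.3% were called in either direction.

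Both ER genes were higher at D0. HERPUD1, an ER membrane protein that organises the disposal of misfolded proteins, had 20.4, 23.8 and 24.4 CPM in KO against 8.98, 10.1 and 10.9 CPM in WT (1.19, SE 0.09, edgeR adjusted p 2.8e-09). XBP1, the factor of the ERN1 arm, had 88.3, 89.9 and 100 CPM in KO against 58.7, 58.4 and 63.1 CPM in WT (0.63, SE 0.06, edgeR adjusted p 6.2e-08). Neither gene's groups overlapped.

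**Figure D2:**
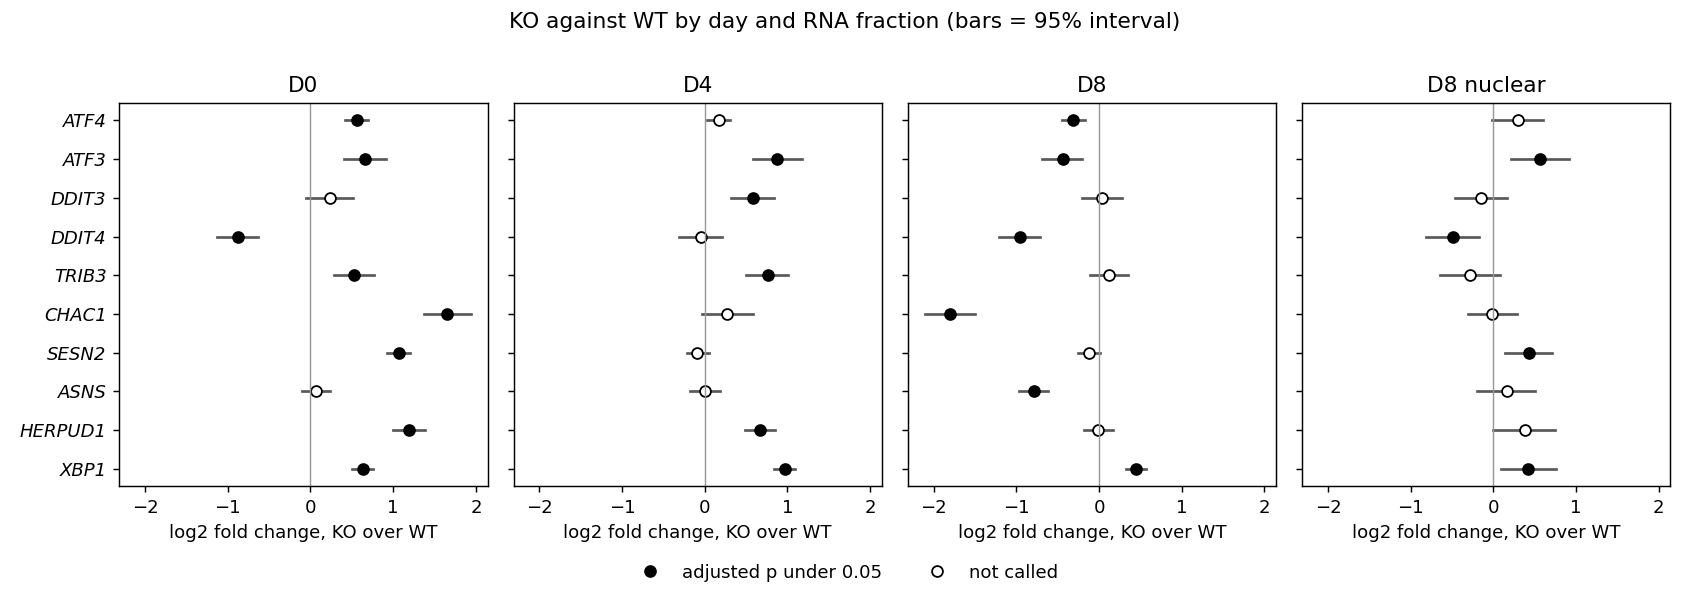
Log2 fold change of KO over WT for each gene at D0, D4 and D8 and in D8 nuclear RNA, with 95% intervals as bars; filled points were called at an adjusted p under 0.05. CHAC1 lies at 1.65 at D0, 0.27 at D4 and -1.80 at D8, while XBP1 lies above 0 in all 4 panels (with total counts only, its nuclear value is -0.05).

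The other genes of the pathways at D0 were followed in 8 lists of 83 genes. Of these, 52 were called higher in KO, against 21.4% of all genes tested, and 9 lower, against 20.9%. Amino acid transporters were higher in 8 of 8 genes, with a median log2 fold change of 0.68. Among them were SLC7A5, which imports leucine (432 CPM in KO against 165 CPM in WT, 1.39), the cystine importer SLC7A11 (124 CPM in KO against 49.5 CPM in WT, 1.33) and the arginine and lysine importer SLC7A3 (325 CPM in KO against 139 CPM in WT, 1.22). Cytosolic aminoacyl-tRNA synthetases, which charge tRNAs with amino acids, were higher in 10 of 13 genes, led by TARS (679 CPM in KO against 369 CPM in WT, 0.88). Of 14 other ATF4 and DDIT3 targets 10 were higher and 2 lower. JDP2 stood at 14.2 CPM in KO against 7.47 CPM in WT (0.92), EIF4EBP1, an inhibitor of cap-dependent translation, at 68 CPM in KO against 36.7 CPM in WT (0.89), and the secreted stress factor GDF15 at 4.14 CPM in KO against 6.51 CPM in WT (-0.65). ER chaperones were higher in 10 of 14 genes, with HSPA5 (BiP) at 1035 CPM in KO against 640 CPM in WT (0.70). Amino acid synthesis had 3 of 7 higher and 1 lower, with PSAT1 of serine synthesis at 627 CPM in KO against 364 CPM in WT (0.78). The remaining lists were mixed. The eIF2 kinases, phosphatase and eIF2B had 6 of 12 higher and 1 lower. The unfolded protein sensors and their proteases had 3 of 7 higher and 3 lower. ER-associated degradation had 2 of 8 higher and 2 lower, near the shares over all genes. The sensors ATF6 (59.7 CPM in KO against 84.2 CPM in WT, -0.50) and ERN1 (6.41 CPM in KO against 9.07 CPM in WT, -0.50) fell. The 3 sensor genes called higher became 1 without the third D0 WT library or without the first D0 KO library, and the 2 degradation genes called lower became 1 without D0 WT library 2 or 3 or any D0 KO library. The single lower genes of the eIF2 and synthesis lists were also lost without 1 of some D0 libraries. Endoderm markers, low in both genotypes, summed to 5.71 to 6.33 CPM in KO and 0.793 to 1.45 CPM in WT, with 3 of 6 called higher. Endothelial markers summed to 282 to 315 CPM in KO and 200 to 221 CPM in WT, with 2 of the 4 measured higher, and markers of surface ectoderm and amnion to 31.4 to 33 CPM in KO and 49.2 to 56 CPM in WT, with 2 of 6 lower. The part of these cell types in the D0 results was not tested.

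**Figure D3:**
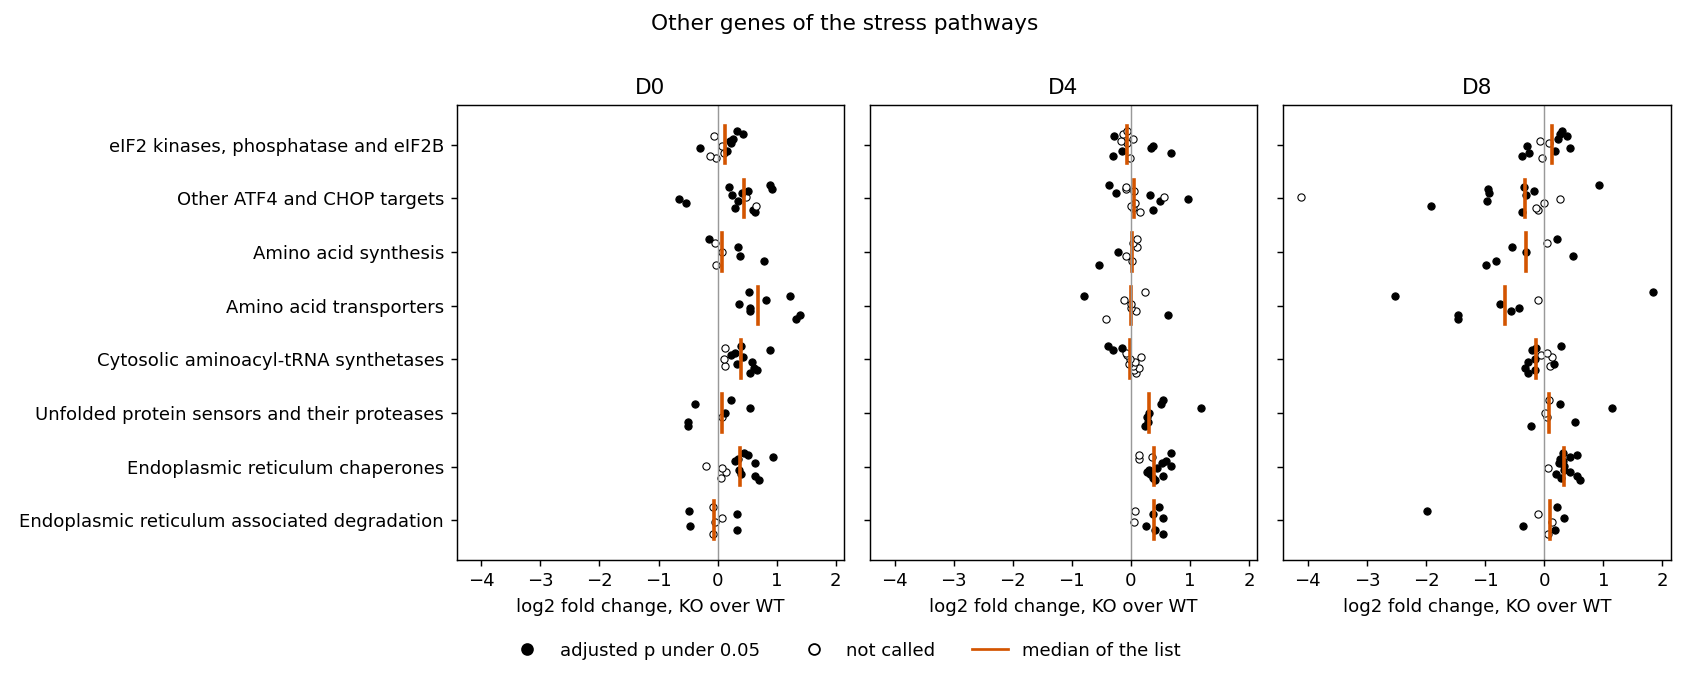
Log2 fold change of KO over WT for each gene of the 8 pathway lists at D0, D4 and D8; filled points were called, and the orange line is the median of the list. Amino acid transporters have a median of 0.68 at D0, 0.00 at D4 and -0.66 at D8, and ER chaperones 0.38, 0.40 and 0.33.

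At D4 the KO difference lay in the ER genes and in ATF3, DDIT3 and TRIB3. Of the 10 genes, 5 were called higher in KO, against 16.3% of all genes, and 0 lower, against 12%. The lower count was also 0 at an unadjusted p under 0.05 in edgeR and in the Wald test of DESeq2. XBP1 had 158, 169 and 163 CPM in KO against 84, 84.3 and 82.7 CPM in WT, 0.97 higher on the log2 scale (SE 0.06, edgeR adjusted p 1.9e-10). HERPUD1 had 33.7, 31.9 and 33.2 CPM in KO against 18.7, 20.7 and 22.8 CPM in WT (0.67, SE 0.09, edgeR adjusted p 4.3e-06). Each gene's KO libraries lay close together and above all WT libraries. ATF3 had 6.4, 7.14 and 6.85 CPM in KO against 4.13, 3.74 and 3.19 CPM in WT (0.87, SE 0.14, edgeR adjusted p 6.2e-05). TRIB3 had 6.69, 7.16 and 7.28 CPM in KO against 3.77, 4.06 and 4.7 CPM in WT (0.76, SE 0.12, edgeR adjusted p 7e-05). DDIT3, which did not pass at D0, had 9.58, 11.5 and 10.5 CPM in KO against 6.24, 7.78 and 7.08 CPM in WT (0.58, SE 0.12, edgeR adjusted p 0.0011). Its KO effect at D4 was not called different from that at D0 (0.35, 95% interval -0.03 to 0.74, edgeR adjusted p 0.14). Without D0 WT library 2 that difference was called (0.48, edgeR adjusted p 0.043). The groups of these 3 genes did not overlap either.

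The remaining 5 genes did not pass at D4. ATF4 had 290, 299 and 290 CPM in KO against 237, 266 and 277 CPM in WT, with no overlap (0.17, SE 0.07, edgeR adjusted p 0.062), and it passed with total counts only (0.25, edgeR adjusted p 0.011), with only the 6 D4 libraries fitted (0.18, edgeR adjusted p 0.04) and without the third WT library (0.22, edgeR adjusted p 0.033). CHAC1 had 6.98, 7.02 and 6.45 CPM in KO against 5.63, 6.07 and 5.21 CPM in WT (0.27, 95% interval -0.03 to 0.58), and it passed with only the D4 libraries fitted (0.28, edgeR adjusted p 0.04). Groups without overlap and higher in KO were found for 7 of the 10 genes, against 23.6% of all genes. SESN2 (24.6 ± 1.3 CPM in KO and 26.1 ± 0.80 CPM in WT, SD, n = 3 each), DDIT4 (24 ± 0.72 CPM in KO and 24.9 ± 4.5 CPM in WT) and ASNS (52.4 ± 2.1 CPM in KO and 52.3 ± 4.9 CPM in WT) overlapped between genotypes, with log2 fold changes of -0.09, -0.05 and 0.00. The 95% interval of ASNS ran from -0.18 to 0.18.

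At D4 most genes of the ER lists were called higher, set against the 16.3% of all genes called higher and 12% lower. Unfolded protein sensors and their proteases were higher in 7 of 7 genes, among them MBTPS2, the site-2 protease that releases ATF6 (49.7 CPM in KO against 21.8 CPM in WT, 1.19). ER chaperones were higher in 11 of 14 genes, with MANF at 77.8 CPM in KO against 48.7 CPM in WT (0.68) and DNAJB9 at 23.4 CPM in KO against 14.7 CPM in WT (0.67). ER-associated degradation was higher in 6 of 8 genes, led by the channel component DERL1 (110 CPM in KO against 74.6 CPM in WT, 0.55) and SEL1L (141 CPM in KO against 97.2 CPM in WT, 0.54). The ER kinase EIF2AK3 (PERK) rose as well, at 63.6 CPM in KO against 39.8 CPM in WT (0.68), in a list with 3 of 12 genes higher and 3 lower. Of the amino acid transporters 1 of 8 was higher and 1 lower, near the shares over all genes, 3 of 13 tRNA synthetases and 2 of 7 synthesis genes were lower, and 4 of 14 other targets were higher and 2 lower. SLC7A3 fell (217 CPM in KO against 377 CPM in WT, -0.80), as did PHGDH, the first enzyme of serine synthesis (182 CPM in KO against 265 CPM in WT, -0.54). The 3 lower genes of the eIF2 list became 1 with total counts only, without D4 WT library 2 or without D4 KO library 3, and 5 in DESeq2. The 2 lower genes among other targets became 0 or 1 with total counts only or without any single D4 library, and the 2 lower synthesis genes became 1 with total counts only, where 2 transporters and 2 tRNA synthetases were higher. Endoderm markers summed to 202 to 221 CPM in D4 KO and 77.3 to 86.2 CPM in WT, with 5 of 6 called higher. Endothelial markers summed to 392 to 438 CPM in KO and 191 to 227 CPM in WT, with 3 of the 4 measured called higher. Surface ectoderm and amnion markers summed to 10.6 to 13.7 CPM in KO and 34.7 to 69.6 CPM in WT, with 4 of 6 lower. Pluripotency markers summed to 1807 to 1821 CPM in KO and 2043 to 2186 CPM in WT, with 3 of 6 lower and 1 higher. Cardiac progenitor markers summed to 579 to 637 CPM in KO and 402 to 534 CPM in WT, with 3 of 6 higher and 1 lower. The part of these cell types in the ER result was not tested. Mitochondrially encoded genes took 10.7 to 12.4% of counts in KO and 15.5 to 18.9% in WT, and their part was not tested either.

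At D8 ATF4, ATF3, CHAC1, ASNS and DDIT4 were lower in libraries labelled KO, and XBP1 was higher. Of the 10 genes, 5 were called lower, against 26.2% of all genes, and 1 higher, against 29.4%. CHAC1 had 3.49, 2.76 and 2.23 CPM in libraries labelled KO against 7.65, 11.2 and 10.8 CPM in WT, a difference of -1.80 on the log2 scale (SE 0.15, edgeR adjusted p 2.3e-09), or 3.49-fold lower. DDIT4 had 20.7, 19.1 and 18.5 CPM in libraries labelled KO against 31.9, 39.4 and 42.3 CPM in WT (-0.96, SE 0.12, edgeR adjusted p 1.1e-06). ASNS had 37.9, 37.2 and 32.8 CPM in libraries labelled KO against 54.3, 62 and 70.5 CPM in WT (-0.79, SE 0.08, edgeR adjusted p 9.9e-08). In all 3 genes the groups stood apart. ATF4 had 276, 288 and 273 CPM in libraries labelled KO against 320, 358 and 358 CPM in WT, again with no overlap (-0.31, SE 0.07, edgeR adjusted p 0.00056). ATF3 had 18.9, 23.6 and 17.3 CPM in libraries labelled KO against 21.6, 29.9 and 29.8 CPM in WT. It was called (-0.44, SE 0.12, edgeR adjusted p 0.003) although 1 library labelled KO lay above 1 WT library. XBP1 was the gene called higher, with 170, 171 and 165 CPM in libraries labelled KO against 131, 125 and 115 CPM in WT (0.45, SE 0.06, edgeR adjusted p 1.8e-06).

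The other 4 genes did not pass at D8. DDIT3 (14.1 ± 0.57 CPM in libraries labelled KO and 13.7 ± 0.64 CPM in WT), HERPUD1 (57 ± 1.7 CPM in libraries labelled KO and 57.2 ± 5.1 CPM in WT) and TRIB3 (8.77 ± 1.2 CPM in libraries labelled KO and 8.08 ± 0.68 CPM in WT) overlapped between the groups. The 95% intervals of their log2 fold changes were -0.20 to 0.28, -0.18 to 0.17 and -0.11 to 0.35. SESN2, with 27.3, 26.5 and 26.1 CPM in libraries labelled KO against 28.6, 30.3 and 27.8 CPM in WT, did not overlap but was not called (-0.12, edgeR adjusted p 0.11), and with total counts only it was (-0.25, edgeR adjusted p 0.0029). Groups without overlap and lower in libraries labelled KO were found for 5 genes, against 28.7% of all genes. With total counts only, the median of all genes was -0.122 at D8 (0.006 with TMM) and the share of calls that were higher was 37.6%, against 52.9% with TMM.

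At D8, where 26.2% of all genes were called lower and 29.4% higher, the amino acid lists held mostly lower genes and the ER chaperones mostly higher ones. Amino acid transporters were lower in 6 of 8 genes, with SLC7A3 at 10.4 CPM in libraries labelled KO against 59.8 CPM in WT (-2.52) and SLC7A11 at 7.32 CPM in libraries labelled KO against 20.1 CPM in WT (-1.46). SLC1A4, a carrier of serine and alanine, was the exception at 68 CPM in libraries labelled KO against 19 CPM in WT (1.84). Other ATF4 and DDIT3 targets were lower in 8 of 14 genes and higher in 1, among them STC2 (22.7 CPM in libraries labelled KO against 44.4 CPM in WT, -0.97), JDP2 (20 CPM in libraries labelled KO against 38.6 CPM in WT, -0.95) and CBS (77.1 CPM in libraries labelled KO against 148 CPM in WT, -0.94). Amino acid synthesis was lower in 4 of 7 genes and higher in 2, with PHGDH at 122 CPM in libraries labelled KO against 242 CPM in WT (-0.99). Of 13 tRNA synthetases 7 were lower and 2 higher, a count of lower genes that fell to 4 without the filter on low counts and to 4 without the first library labelled KO. ER chaperones were higher in 13 of 14 genes, with HSPA5 at 797 CPM in libraries labelled KO against 524 CPM in WT (0.60) and CALR at 728 CPM in libraries labelled KO against 493 CPM in WT (0.56). With total counts only, 6 of the 14 were called higher. MBTPS2 was higher at D8 too (71.2 CPM in libraries labelled KO against 32.2 CPM in WT, 1.15), in a sensor list with 3 of 7 genes higher and 1 lower, the lower one lost without the filter, without D8 WT library 2 or 4 or without labelled-KO D8 library 2 or 4. The list of eIF2 kinases, phosphatase and eIF2B had 6 of 12 higher and 3 lower, or 3 higher and 5 lower with total counts only. ER-associated degradation had 3 of 8 higher and 2 lower, and 1 higher with total counts only. Markers of surface ectoderm and amnion summed to 10.9 to 19.1 CPM in libraries labelled KO and 471 to 921 CPM in WT, with 6 of 6 lower. Cardiomyocyte markers had 5 of 7 called higher and 1 lower, with sums of 24861 to 29014 CPM in libraries labelled KO and 8900 to 15820 CPM in WT. Pluripotency markers summed to 523 to 604 CPM in libraries labelled KO and 1212 to 1551 CPM in WT, with 4 of 6 lower and 1 higher. Cardiac progenitor markers summed to 718 to 804 CPM in libraries labelled KO and 521 to 593 CPM in WT, with 4 of 6 higher and 1 lower. Endothelial markers summed to 612 to 665 CPM in libraries labelled KO and 278 to 332 CPM in WT, with 3 of the 4 measured higher, and endoderm markers to 280 to 423 CPM in libraries labelled KO and 135 to 212 CPM in WT, with 5 of 6 higher and 1 lower. The part of these cell types in the D8 differences was not tested.

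The KO effect itself was compared between days as an interaction. From D4 to D8 it became lower in 9 of the 10 genes, all but SESN2, against 21.9% of all genes, and higher in 0, against 19.6%, with a median of -0.66 for the 10 genes and -0.035 for all genes. From D0 to D4 it became lower in 4 genes (ATF4, CHAC1, SESN2 and HERPUD1), against 19.1% of all genes, and higher in DDIT4 and XBP1, against 20%. The SESN2 difference from D4 to D8 passed with total counts only (-0.24, edgeR adjusted p 0.045). From D0 to D8 the KO effect was lower in 7 genes, against 22.1% of all genes, and higher in 0, against 22.8%. The difference was largest for CHAC1, whose KO effect was lower at D8 than at D0 by 3.45 on the log2 scale (edgeR adjusted p 4.2e-11). HERPUD1 followed at -1.20 (edgeR adjusted p 1.1e-07), SESN2 at -1.19 (edgeR adjusted p 1.5e-09) and ATF3 at -1.10 (edgeR adjusted p 2.2e-05). For TRIB3 the difference (-0.41, edgeR adjusted p 0.041) was no longer called without D0 WT library 1 or 2, D0 KO library 2 or 3, D8 WT library 2 or 4 or labelled-KO D8 library 4, with edgeR adjusted p up to 0.13. The counts of 0 higher were also 0 at an unadjusted p under 0.05 in edgeR and in the Wald test of DESeq2.

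During differentiation itself, the genes moved in both directions. From D0 to D4, DDIT4, ASNS, ATF3, TRIB3, CHAC1 and ATF4 fell in both genotypes, while DDIT3, HERPUD1 and XBP1 rose in both. In KO 7 of the 10 genes fell, against 38.5% of all genes, and 3 rose, against 44.1%. In WT 6 fell, against 39.1%, and 4 rose, against 42%. DDIT4 and ASNS fell most. DDIT4 stood at 122 ± 12, 24 ± 0.72 and 19.4 ± 1.1 CPM at D0, D4 and D8 in KO and at 225 ± 32, 24.9 ± 4.5 and 37.8 ± 5.4 CPM in WT, so its D4 change was -2.35 in KO and -3.18 in WT. ASNS stood at 258 ± 13, 52.4 ± 2.1 and 35.9 ± 2.8 CPM in KO and at 246 ± 9.3, 52.3 ± 4.9 and 62.3 ± 8.1 CPM in WT, a D4 change of -2.30 in KO and -2.23 in WT. SESN2 fell in KO (-0.52) and rose in WT (0.63) over these days, and the difference between those changes is the interaction of -1.15 (edgeR adjusted p 7.8e-09).

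**Figure D4:**
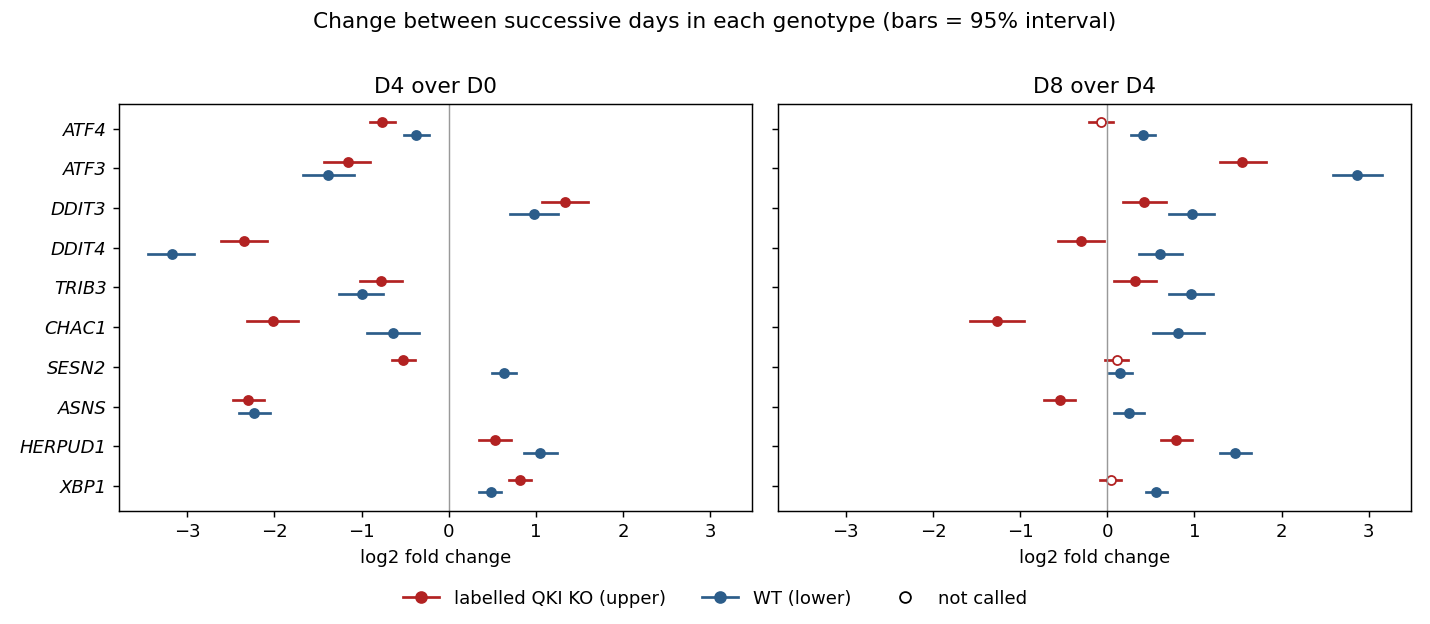
Log2 fold change from D0 to D4 (left) and from D4 to D8 (right) for each gene in libraries labelled KO (upper point of each pair) and WT (lower point), with 95% intervals; open points were not called. From D4 to D8 all WT points lie above 0, while CHAC1, ASNS, DDIT4 and ATF4 lie below 0 in libraries labelled KO at -1.27, -0.54, -0.30 and -0.07, ATF4 as an open point.

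From D4 to D8, 10 of the 10 genes rose in WT, against 35% of all genes, and 0 fell, against 33.8%, also 0 at an unadjusted p under 0.05 in edgeR and by DESeq2. In libraries labelled KO 4 rose, against 36.1%, and 3 fell, against 38.9%. ATF3 rose most, from D4 to D8 by 1.55 in libraries labelled KO and by 2.87 in WT, followed by HERPUD1 (0.79 in libraries labelled KO and 1.47 in WT). CHAC1 fell by 1.27 in libraries labelled KO and rose by 0.81 in WT. ASNS fell by 0.54 in libraries labelled KO and rose by 0.25 in WT, and DDIT4 fell by 0.30 in libraries labelled KO and rose by 0.61 in WT. The WT rises of SESN2 (0.15, edgeR adjusted p 0.044) and ASNS (edgeR adjusted p 0.012) were the weakest, and 9 genes were called whichever single WT library was left out. SESN2 lost its call without D4 WT library 1 or 2 and without D8 WT library 2 or 3 (edgeR adjusted p 0.055 to 0.16). It also lost it with DESeq2 size factors (0.10, edgeR adjusted p 0.15), in the DESeq2 Wald test (0.11, adjusted p 0.14), without the filter (0.19, edgeR adjusted p 0.066) and with the compared groups only (0.14, edgeR adjusted p 0.098). ASNS lost it with the compared groups only (0.24, edgeR adjusted p 0.055), without D4 WT library 3 (edgeR adjusted p 0.082) and without D8 WT library 4 (edgeR adjusted p 0.1). The falls of DDIT4 and rises of TRIB3 (0.32) in libraries labelled KO were likewise lost without some single libraries, with edgeR adjusted p up to 0.1 and 0.075. DDIT4 lost its call without D4 KO library 2 or 3 or labelled-KO D8 library 2 or 4, and TRIB3 without D4 KO library 1 or labelled-KO D8 library 1 or 2, or with total counts only (0.16, edgeR adjusted p 0.23). ATF4, at -0.07 from D4 to D8 in libraries labelled KO, lay below D4 in all of them but was not called (edgeR adjusted p 0.34), and with total counts only it was (-0.23, edgeR adjusted p 0.0051).

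Ordered by level across the 6 whole-cell groups, CHAC1, SESN2, TRIB3 and ATF4 were highest in D0 KO, above all libraries of the next group. After that, neighbouring groups often overlapped: ATF4 averaged 346 ± 22 CPM in D8 WT and 336 ± 28 CPM in D0 WT, and CHAC1 9.89 ± 2.0 CPM in D8 WT and 8.81 ± 1.1 CPM in D0 WT. HERPUD1 and DDIT3 were highest at D8, where the genotypes overlapped, and XBP1 was highest in the D8 libraries labelled KO and in D4 KO (168 ± 3.2 CPM at D8 and 164 ± 5.4 CPM at D4), which overlapped each other. Per kilobase of exon, ATF4 was the most abundant of the 10 genes in all 6 groups, with 197 ± 5.1 CPM per kb in D0 KO and 134 ± 11 CPM per kb in D0 WT. The length used was the union of all annotated exons of a gene, so the order depends on that choice. At D0 DDIT4 came next in WT at 110 ± 16 CPM per kb. In D0 KO DDIT4 (59.3 ± 5.8 CPM per kb) and ASNS (58 ± 2.9 CPM per kb) were level within their SD. At D4 and D8 XBP1 was second, with 55.6 ± 1.1 CPM per kb in D8 libraries labelled KO and 40.8 ± 2.5 CPM per kb in D8 WT. CHAC1 was the least abundant of the 10 genes per kb in D8 libraries labelled KO, at 1.37 ± 0.31 CPM per kb, against 4.81 ± 0.95 CPM per kb in D8 WT. Reads of close pseudogenes were few: ATF4P4, ASNSP3 and XBP1P1 had at most 12, 18 and 19 counts in a library.

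In D8 nuclear RNA the differences of these genes depended on single libraries. Of the 10 genes, 3 were called higher in libraries labelled KO, against 31.2% of the 30481 genes tested, and 1 lower, against 32.8% (4 in either direction, against 64%). ATF3 had 32.6, 61.4 and 30.4 CPM in libraries labelled KO against 25.8, 29.1 and 29.4 CPM in WT (0.57, SE 0.17, edgeR adjusted p 0.0063). SESN2 had 46.6, 69 and 49.3 CPM in libraries labelled KO against 41.9, 42.2 and 39 CPM in WT (0.43, SE 0.14, edgeR adjusted p 0.011), and XBP1 68.4, 127 and 73.7 CPM in libraries labelled KO against 72.2, 63.5 and 65 CPM in WT (0.42, SE 0.17, edgeR adjusted p 0.028). In each gene the second library labelled KO was the high one. That library exceeded the other 2 in all 10 genes, by 1.36 to 2.03 times their mean, and its endoderm markers summed to 485 CPM, with 217 and 189 CPM in the other libraries labelled KO and 17.9 to 21.5 CPM in WT. Its surface ectoderm and amnion markers summed to 399 CPM, with 150 and 159 CPM in the other libraries labelled KO and 485 to 780 CPM in WT. The part of those cells in its stress gene levels was not tested. Without that library 3 genes were called, each lower, and ATF3 (0.17, edgeR adjusted p 0.23), SESN2 (0.23, edgeR adjusted p 0.096) and XBP1 (0.09, edgeR adjusted p 0.54) were not called. Over all nuclear genes 17364 were called in that fit, 52.9% of them higher, so lower calls were common there. DDIT4 was called lower with that library (74.6, 117 and 71 CPM in libraries labelled KO against 125, 118 and 126 CPM in WT, -0.49, edgeR adjusted p 0.0089) and without it (-0.76, edgeR adjusted p 6.5e-07). TRIB3 (-0.70, edgeR adjusted p 1.8e-06) and DDIT3 (-0.42, edgeR adjusted p 0.0035) were called lower without it, and were not called with it under TMM. Single WT libraries mattered too: without the third, 2 genes were called. XBP1 was not called without WT library 2 (edgeR adjusted p 0.12) or 3 (0.11), SESN2 not without WT library 3 (0.095), and DDIT4 not without labelled-KO library 1 (0.17) or 3 (0.14). HERPUD1 was called higher without labelled-KO library 1 (0.66, edgeR adjusted p 0.0021) or 3 (0.55, edgeR adjusted p 0.016), and ATF4 (0.46, edgeR adjusted p 0.03) and ASNS (0.42, edgeR adjusted p 0.049) were called higher without library 1.

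Scaling mattered more here than in whole-cell RNA. The small nucleolar RNA SNORD3A took 11.5 to 14.4% of counts in nuclear libraries labelled KO and 21.3 to 28.1% in WT, and the median log2 fold change of all nuclear genes was -0.271 with TMM, -0.135 with DESeq2 size factors and -0.721 with total counts. With total counts ATF3 was at 0.08 (not called), SESN2 at -0.04 and XBP1 at -0.05, which turned the direction of the last 2. Total counts also gave lower calls for TRIB3 (-0.77, edgeR adjusted p 0.00015), DDIT3 (-0.63, edgeR adjusted p 1e-04), CHAC1 (-0.48, edgeR adjusted p 0.0082) and ASNS (-0.32, edgeR adjusted p 0.025). HERPUD1 was called higher with DESeq2 size factors (0.55, edgeR adjusted p 0.025) and without the filter on low counts (0.61, edgeR adjusted p 0.033), and ATF4 in the DESeq2 Wald test (0.65, adjusted p 0.025). DDIT4 was negative under each of these scalings, at -0.49, -0.33 and -0.96, but was not called with DESeq2 size factors (edgeR adjusted p 0.17) or without the filter (-0.27, edgeR adjusted p 0.38), nor in the DESeq2 Wald test (-0.12, adjusted p 0.77). In whole-cell D8 RNA ATF4 and SESN2 were lower in all libraries labelled KO than in all WT libraries, and in nuclear RNA both were higher in all of them under TMM, a difference between fractions that was not tested.

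The 2 fractions were deposited and scaled as separate tables, so their levels are set side by side without a test. DDIT3 averaged 68.6 ± 21 CPM in nuclear and 14.1 ± 0.57 CPM in whole-cell RNA of libraries labelled KO, and 76.1 ± 2.6 CPM in nuclear and 13.7 ± 0.64 CPM in whole-cell RNA of WT. TRIB3 had the highest nuclear to whole-cell ratio in WT, 6.68, against 5.05 in libraries labelled KO. CHAC1 had the highest in libraries labelled KO, 5.97 (16.9 CPM nuclear and 2.83 CPM whole-cell), against 1.73 in WT (17.1 CPM nuclear and 9.89 CPM whole-cell). ATF4 and XBP1 were the 2 genes with less in nuclear than in whole-cell RNA in both genotypes, at ratios of 0.606 and 0.534 in libraries labelled KO and 0.399 and 0.54 in WT.

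Across the 18 whole-cell libraries the 10 genes did not vary as one group. These are Pearson correlations of log2(CPM + 1), given as a description, over libraries that share 6 groups of day and genotype. DDIT4 and ASNS varied most alike (r 0.96), then DDIT3 and HERPUD1 (0.92), ATF4 and CHAC1 (0.91), and HERPUD1 and XBP1 (0.87). DDIT3 ran opposite to ASNS (-0.88) and DDIT4 (-0.84).

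**Figure D5:**
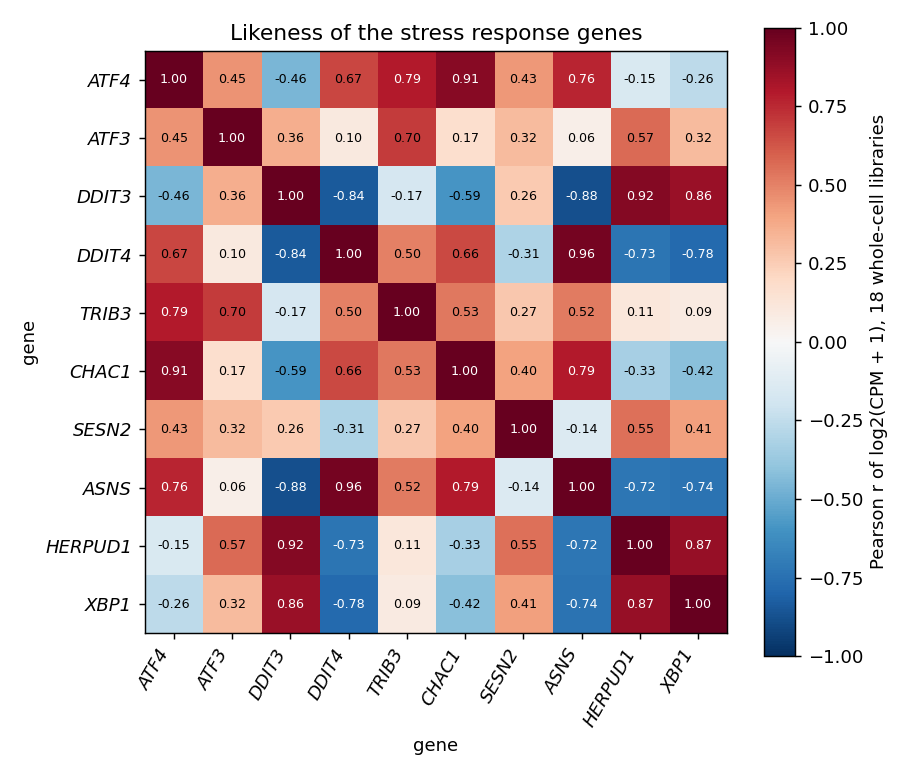
Pearson r of log2(CPM + 1) between each pair of the 10 genes over the 18 whole-cell libraries, red for positive and blue for negative values. DDIT3, HERPUD1 and XBP1 form one block (0.86 to 0.92), and ATF4, CHAC1, ASNS and DDIT4 another (0.66 to 0.96).

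Among 12162 other genes with a mean of at least 5 CPM, those most like each member over these libraries were NKAP for ATF4 (r 0.938), SMARCA2 for ATF3 (0.963), HNMT for DDIT3 (0.985), LTA4H for DDIT4 (0.993), TCEAL7 for TRIB3 (0.936), RPS6KA6 for CHAC1 (0.955), TRMT6 for SESN2 (0.936), RAB39B for ASNS (0.994), CCDC141 for HERPUD1 (0.977) and ALG2 for XBP1 (0.977). Each of these is the closest of 3 matches listed per gene, of which the lowest was UBAP2L for SESN2 (0.894).

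QKI controls splicing, so the members' skipped exons were looked up in the authors' deposited tables, which give build hg19 and name their 2 arms only as first and second. The authors' deposited tables list 22 D0 events, 18 D4 events, 33 D8 events and 27 events of 293T cells in these genes. Called events needed an FDR under 0.05, an inclusion difference of 0.1 or more and 10 or more junction reads on average. None of these events was called, against 2.03, 0.925, 1.92 and 0.349% of all events in the authors' deposited tables. At D0, 2 events had an FDR under 0.05 alone in the authors' deposited table. One was a SESN2 exon (hg19 chromosome 1, 28598185 to 28598382), with inclusion levels of 0.904, 0.982 and 0.967 in the second arm of the authors' deposited table and 1.0, 0.978 and 1.0 in the first (FDR 0.015). The other was an ASNS exon (hg19 chromosome 7, 97501031 to 97501308) included at 0.017, 0.012 and 0.015 in the second arm of the authors' deposited table and 0.009, 0.011 and 0.009 in the first (FDR 0.0168). The largest difference of any member event was in the same ASNS exon with other neighbours in 293T cells, where the authors' deposited table gives 0.249 on 23.7 and 28.3 junction reads per library (FDR 0.144).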

How the data were processed

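The 18 whole-cell and 6 nuclear libraries were read as the authors' deposited counts per gene, which are raw and not normalised. Per the submitters' processing notes UMI-tools, cutadapt, STAR, featureCounts, DESeq and hg19 were used. No version, annotation or strand setting is given in the sources used here. Per the labels' protocols the RNA of these cells was poly(A)-selected and made into stranded libraries. The small nucleolar RNA SNORD3A was the top gene of every nuclear library, at 11.5 to 28.1% of counts. How far poly(A) selection held in the nuclear libraries was not tested. The skipped-exon tables deposited by the authors hold junction reads per event, an adjusted p-value (FDR) and a score, the inclusion difference of 2 unnamed arms. Every per-sample column was mapped to a sample or arm.

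From the counts, edgeR 4.0.16 in R 4.3.3 (limma 3.58.1) filtered low genes (filterByExpr), scaled by TMM and fitted the quasi-likelihood model with 1 mean per group, in 1 fit of the 18 whole-cell libraries and another of the nuclear ones. P-values were adjusted by Benjamini-Hochberg over all genes tested, and calls were made under 0.05. The biological coefficient of variation was 8.23% in whole-cell and 11.9% in nuclear libraries. The fits were tested on simulated data with known changes. No pair of replicates agreed within sampling noise (chi-square per degree of freedom 1.22 to 62.2), so all were counted as separate. The lowest value, 1.22, was that of nuclear WT libraries 2 and 3, against 5.77 and 6.35 for the other nuclear WT pairs. Whether those 2 libraries came from the same material was not tested.

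The 10 genes and the lists were chosen with earlier results of these data known. All 10 are named in every comparison. Up to 3 genes per list were eligible to be named in a comparison, those called with a mean of at least 5 CPM and the largest change, and some of these were left unnamed. Genes most like each of the 10 were searched among those at 5 CPM or more. Alternatives tried were DESeq2 1.42.0 size factors and its Wald test, total counts, no filter, fitting the compared groups only, a replicate block and leaving out each library. The same alternatives for the list counts were added after the data were seen. Same-numbered libraries did not deviate together in every pair (correlations -0.36 to 0.47 at D0), so the numbers were not used as pairs.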

Additional observations from a re-analysis of the deposited data

Results flagged for a closer look

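The effect of KO over WT differed between days in 22 of the gene and day pairs, each tested as an interaction in edgeR with Benjamini-Hochberg adjustment. Values are the KO effect at the later day minus that at the earlier day, on the log2 scale. From D0 to D4 the effect differed for CHAC1 (-1.38, adjusted p 1.6e-05), SESN2 (-1.15, 7.8e-09), HERPUD1 (-0.52, 0.0023) and ATF4 (-0.39, 0.0027), and in the other direction for DDIT4 (0.83, 0.00055) and XBP1 (0.34, 0.0029). From D4 to D8 it differed for CHAC1 (-2.08, adjusted p 1.3e-07), ATF3 (-1.32, 9e-06), DDIT4 (-0.91, 0.00027), ASNS (-0.79, 2.2e-05), HERPUD1 (-0.68, 0.00012), TRIB3 (-0.64, 0.0042), DDIT3 (-0.54, 0.014), XBP1 (-0.52, 4.4e-05) and ATF4 (-0.48, 0.00039). From D0 to D8 it differed for CHAC1 (-3.45, adjusted p 4.2e-11), HERPUD1 (-1.20, 1.1e-07), SESN2 (-1.19, 1.5e-09), ATF3 (-1.10, 2.2e-05), ATF4 (-0.87, 2.7e-07), ASNS (-0.86, 4.6e-06) and TRIB3 (-0.41, 0.041). Day and QKI total level change together across these contrasts and cannot be told apart. Each genotype had the same CHIR dose at D4 as at D8, so the dose difference changes only in the contrasts with D0. There it cannot be told apart from day either. Whether the effect of the dose difference itself differed between D4 and D8 was not tested.

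At D8, the values of ATF4 and SESN2 had opposite signs in the 2 fractions. In nuclear RNA every library labelled KO lay above every WT library, at 0.30 for ATF4 (edgeR adjusted p 0.082) and 0.43 for SESN2 (edgeR adjusted p 0.011), while in whole-cell RNA the libraries labelled KO lay below WT, at -0.31 for ATF4 (edgeR adjusted p 0.00056) and -0.12 for SESN2 (edgeR adjusted p 0.11). The difference between fractions was not tested, and with total counts only the nuclear values were -0.17 for ATF4 and -0.04 for SESN2. Without the second nuclear library labelled KO they were 0.13 (edgeR adjusted p 0.37) and 0.23 (edgeR adjusted p 0.096), neither called.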

How the results depend on the processing

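Of 1112 alternative values of called results for the 10 genes, 1068 kept direction and call, 42 kept direction only, and 2 turned: nuclear SESN2 (-0.04) and XBP1 (-0.05) with total counts only. Of 378 values of results not called, 41 turned and 26 passed. With total counts only, nuclear DDIT3 (-0.63), TRIB3 (-0.77) and CHAC1 (-0.48), ATF4 at D4 (0.25), SESN2 at D8 (-0.25), ATF4 in KO from D4 to D8 (-0.23) and the interactions of SESN2 from D4 to D8 (-0.24) and XBP1 from D0 to D8 (-0.29) passed. Nuclear HERPUD1 passed with DESeq2 size factors (0.55) and without the filter (0.61), nuclear ATF4 in the DESeq2 Wald test (0.65), and with the compared groups only ATF4 (0.18) and CHAC1 (0.28) at D4 and the XBP1 interaction from D0 to D8 (-0.25). The values that turned with total counts only were nuclear ATF4 (-0.17), ASNS (-0.32, edgeR adjusted p 0.025) and HERPUD1 (-0.12), DDIT4 at D4 (0.02), DDIT3 and TRIB3 at D8 (-0.09 and -0.01), SESN2 and XBP1 in KO from D4 to D8 (-0.05 and -0.12) and the ASNS interaction from D0 to D4 (0.03). With DESeq2 size factors they were ASNS at D4 (-0.02), HERPUD1 at D8 (0.01), nuclear DDIT3 (0.01) and CHAC1 (0.14), and the SESN2 interaction from D4 to D8 (0.00). With the DESeq2 Wald test they were ASNS at D4 (-0.02), HERPUD1 at D8 (0.01), nuclear DDIT3 (0.23), CHAC1 (0.35) and TRIB3 (0.11), and the SESN2 interaction from D4 to D8 (0.01). Without the filter nuclear DDIT3 was at 0.07 and CHAC1 at 0.20, and with the compared groups only DDIT3 at D8 was at -0.01. Leaving out 1 library turned ASNS at D4 (range -0.07 to 0.05), HERPUD1 at D8 (-0.07 to 0.06), DDIT4 at D4 (-0.20 to 0.05), the SESN2 interaction from D4 to D8 (-0.06 to 0.01), the DDIT4 interaction from D0 to D8 (-0.19 to 0.02), and nuclear DDIT3 (-0.42 to 0.11), CHAC1 (-0.19 to 0.19), TRIB3 (-0.70 to 0.02), ASNS (-0.19 to 0.42) and HERPUD1 (-0.05 to 0.66). The cause was not tested.

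The number of the 10 genes called stayed within 1.5 times under each alternative to the scaling, filter, tool, fitted groups and block. In nuclear RNA the genes behind that number changed. There 3 were called higher and 1 lower in the main fit, and 4 higher and 0 lower in the DESeq2 Wald test. Of all nuclear genes called, 48.7% were higher in the main fit and 90.8% in the Wald test. With total counts only, ATF3, SESN2 and XBP1 lost their nuclear calls, and TRIB3, DDIT3, CHAC1 and ASNS were called lower. Leaving out 1 library gave 8 to 9 at D0, 5 to 6 at D4, 6 to 6 at D8, 2 to 6 in nuclear RNA, 10 to 10 in KO and in WT from D0 to D4, 5 to 6 in KO and 9 to 9 in WT from D4 to D8, and for the interactions 6 to 7 from D0 to D4, 9 to 9 from D4 to D8 and 6 to 7 from D0 to D8. Over all nuclear genes 19515 were called in edgeR and 11049 by the DESeq2 Wald test. With total counts only, the share of calls that were higher was 73.8% at D4 (57.6% with TMM) and 25.6% in nuclear RNA (48.7%).

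The replicate numbers did not pair the libraries. With the replicate block ATF3 at D8 (-0.38, edgeR adjusted p 0.18), nuclear XBP1 (0.37, 0.071) and the WT changes from D4 to D8 of SESN2 (0.15, 0.22) and ASNS (0.19, 0.069) were not called, ATF4 (0.18, 0.038) and CHAC1 (0.28, 0.044) passed at D4, TRIB3 at D8 turned to -0.08, and at D8 7 ER chaperones were called higher and 2 tRNA synthetases lower. In nuclear RNA 3 degradation genes were higher and 1 transporter lower. Depth limits the low genes: CHAC1 had 132 to 226 counts in D8 libraries labelled KO.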

Other observations

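In D8 nuclear RNA the pathway lists were mostly higher in libraries labelled KO with TMM scaling, where 31.2% of all genes tested were called higher and 32.8% lower and the median over all nuclear genes was -0.271. With total counts only, 25.6% of all nuclear calls were higher, against 48.7% with TMM. Cytosolic tRNA synthetases were called higher in 12 of 13 genes, with EPRS at 1.16 and LARS at 1.14 on the log2 scale, and 8 were higher and 1 lower with total counts only. The eIF2 kinases, phosphatase and eIF2B were higher in 11 of 12 genes, led by EIF2B4 (0.94), a subunit of the factor that reloads eIF2, and EIF2AK1 (0.88), the heme-sensing kinase, and 6 were higher with total counts only. Sensors and their proteases were higher in 5 of 7 genes, with MBTPS2 at 1.67, against 3 higher and 2 lower with total counts only. ER-associated degradation had 6 of 8 higher, with DERL1 at 0.73, and 1 lower, DERL3 at -0.95. It fell to 2 higher without the second library labelled KO or the third WT library and to 3 without the second WT library, and with total counts only 1 was higher and 2 lower.

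ER chaperones, higher in whole-cell D8 RNA, had 2 of 14 higher and 3 lower in nuclear RNA, among them SDF2L1 (-1.17), and 8 were lower without the second library labelled KO. With total counts only 10 were lower, and in the DESeq2 Wald test 0 were. Of all nuclear genes called, 25.6% were higher with total counts only and 90.8% in the Wald test, against 48.7% with TMM. Without the second library labelled KO 52.9% were higher. Amino acid transporters had 2 of 8 higher and 2 lower, with SLC7A3 at -0.97, and 5 were lower without that library or with total counts only, against 1 with DESeq2 size factors or without the filter and 0 in the DESeq2 Wald test. Other ATF4 and DDIT3 targets had 6 of 14 higher, and 4 higher and 5 lower with total counts only. Amino acid synthesis had 4 of 7 higher, 1 higher and 2 lower with total counts only, and 2 higher without the second library labelled KO or the third WT library. Cardiomyocyte markers were higher in 7 of 7 genes, with a median of 2.01, and their part in these counts was not tested. The differences between fractions were not tested.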
